A study of Homo sapiens with 4 samples.

Results

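A set of 10 genes of the transforming growth factor beta (TGF-beta) system is described in C28/I2, an immortalised human chondrocyte line. They are the 3 ligand genes TGFB1, TGFB2 and TGFB3, the 4 latent binding protein genes LTBP1 to LTBP4, the activin subunit gene INHBA, the induced matrix protein gene TGFBI and the receptor gene TGFBR2. Their rows were taken by gene symbol from the deposited table, which gave 10 of 19215 genes. One group of 2 libraries came from cells exposed for 48 h to FABP4, a lipid carrier of adipocytes that is also secreted, at 25 ng/mL. The control group of 2 libraries came from cells kept for 48 h with 0.5% DMSO, and the labels do not say whether the FABP4 cells received DMSO as well. Both groups grew in medium with 10% fetal bovine serum and 1% penicillin and streptomycin, and all 4 libraries come from this single line. Nothing in the labels says that the libraries of a group came from separate cultures, so p-values reflect only how far these samples spread, which may be technical.

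TGF-beta is secreted as an inactive complex in which the ligand stays bound to its own propeptide, the latency-associated peptide. Latent binding proteins attach that complex to fibrillin microfibrils of the matrix, and integrins or proteases later free the ligand. Free ligand binds the type II receptor, which then recruits and phosphorylates the type I receptor, and SMAD2 and SMAD3 carry the signal to the nucleus. In cartilage, TGF-beta is known for keeping chondrocytes from hypertrophy and for driving matrix synthesis. Of the 4 latent binding proteins, LTBP2 is the one that does not bind latent TGF-beta, although it does bind fibrillin.

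Levels are FPKM as the authors deposited them, that is, fragment numbers divided by transcript length and by library size. The depth estimated from low FPKM values was 11325000 to 13075000 fragments per library, and log2 levels correlated across genes with a Pearson r of 0.991 to 0.994 between any 2 libraries, where genes are not independent replicates. Tests were made with limma on log2(FPKM + 1) across the 12490 genes that reached 1 FPKM in at least 2 libraries. There, 74 genes passed an adjusted p of 0.05, which is 0.592% of those tested, with 37 higher and 37 lower. The chondrocyte label rests on few of its markers: SOX9 and ACAN were the 2 of 11 with at least 1 FPKM in every library, COL2A1 lay at 0 to 0.05 FPKM and COL9A1 was listed at 0 in every library. The 8 fibroblast markers summed to 1218 to 1680 FPKM with FABP4 and 1378 to 1549 with DMSO, nearly all of it from COL1A1 and COL1A2, while the fibroblast markers DCN, LUM and THY1 stayed under 1 FPKM. Summed macrophage markers were 2.57 to 2.78 with FABP4 and 3.50 to 3.88 with DMSO, mostly CSF1R, with the other 3 of 4 under 1 FPKM in every library. Summed chondrocyte markers were 12.9 to 15.7 and 16.4 to 16.8, summed epithelial markers 96.9 to 97.0 and 99.2 to 113, and summed adipocyte markers 1.47 to 1.68 and 1.31 to 1.55, with ADIPOQ listed at 0. Nearly all of the epithelial sum came from KRT8 and KRT18, while EPCAM and CDH1 stayed under 1 FPKM in every library. The part of these marker differences in the results below was not tested. In bulk RNA, fewer cells of a type and less RNA per cell cannot be told apart.

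Cells given FABP4 had less LTBP2 mRNA, at 0.570 times the control level, and LTBP2 was the only one of the 10 genes to pass in the limma test as set out above. Of 12 alternative limma settings, 8 ended that call, the omission of any 1 library among them, and some also called TGFB2 or INHBA. TGFB2, INHBA and TGFBI also lay lower in both FABP4 libraries than in both DMSO libraries, at 0.664 to 0.761 times the control mean, but did not pass in limma. The authors' deposited table, from DESeq2, calls LTBP2, TGFB2 and INHBA lower and leaves TGFBI uncalled. For TGFB1, TGFB3, LTBP1, LTBP3, LTBP4 and TGFBR2 the libraries of both groups overlapped. All 10 genes passed the filter, LTBP1 in only 3 of the 4 libraries.

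Against these counts stands the background over all genes. The 10 genes were chosen with earlier results of these data known, so their counts beside it are no test. In limma 0.296% of the 12490 tested genes were lower, beside 1 of the 10. Of the 18019 genes with a q-value in the authors' deposited table, 0.655% passed 0.05 and 0.488% passed with a lower level, beside 3 lower of the 10. An unadjusted limma p under 0.05 was found in 9.68% of the tested genes, with a lower level in 4.0% and a higher level in 5.68% of the tested genes, beside 4 lower of the 10. Groups did not overlap in 36.9% of tested genes, with FABP4 lower in 16.1%, beside 4 lower of the 10. The median log2 fold change was -0.037 over the 10 genes and 0.014 over all tested genes.

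**Figure D1:**
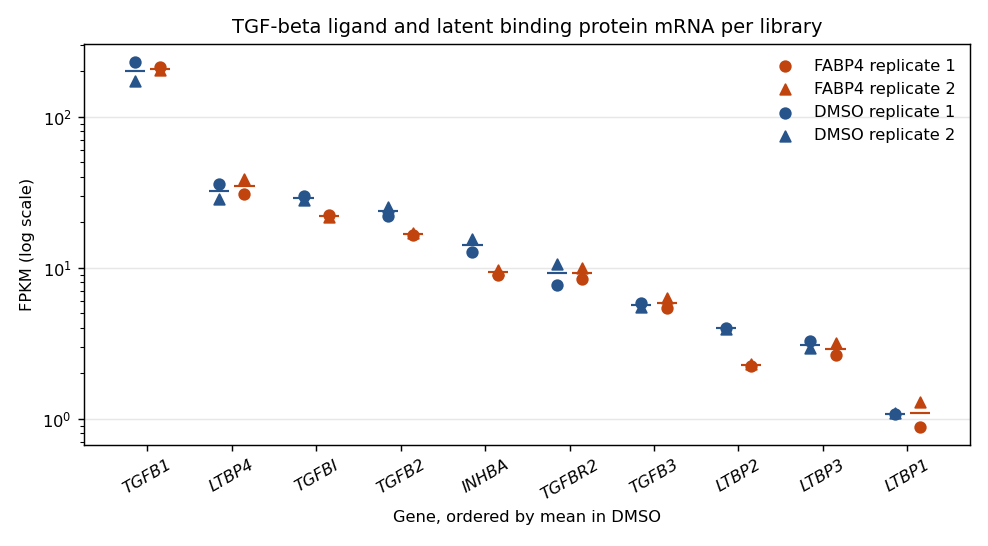
FPKM of each gene (log axis) in the 4 libraries, ordered by the DMSO mean; circles are replicate 1, triangles replicate 2, and short lines the mean of 2 libraries. LTBP2, INHBA, TGFB2 and TGFBI are lower in both FABP4 libraries, and the other 6 genes overlap between groups.

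The genes spanned a wide range of levels, and since FPKM is per length they can be ordered within a library. TGFB1 stood far above the rest at 201 ± 40.1 FPKM (SD, n = 2) in DMSO, at percentile 96.7 of tested genes. LTBP4 followed at 32.3 ± 5.23 FPKM and TGFBI at 28.9 ± 1.09 FPKM, and the DMSO libraries of these 2 genes overlapped. Below them came TGFB2, INHBA, TGFBR2, TGFB3, LTBP2, LTBP3 and LTBP1, each with its DMSO libraries apart from the next gene's. LTBP1 was the lowest at 1.08 ± 0.0141 FPKM, at percentile 2.1.

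With FABP4, the order by mean differed for LTBP2 and LTBP3. LTBP2, above LTBP3 in both DMSO libraries, lay below it in both FABP4 libraries. INHBA, above TGFBR2 in both DMSO libraries, kept the higher mean but overlapped with it under FABP4, at 8.95 to 9.72 FPKM beside 8.44 to 10.01 FPKM for TGFBR2. LTBP4 and TGFBI, which overlapped in DMSO, lay apart under FABP4, at 31.02 to 38.68 FPKM beside 21.81 to 22.23 FPKM. These orders are a description without a test.

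Among the ligand genes, TGFB1, the main TGF-beta isoform of most tissues (GRCh38 chromosome 19, 41301587 to 41353911, minus strand), had 212.43 and 203.74 FPKM in FABP4 replicates 1 and 2 and 229.49 and 172.81 FPKM in DMSO replicates 1 and 2. Both FABP4 libraries lay between the 2 DMSO libraries, which differed from each other by 1.33 times. Its log2 fold change of 0.06 (SE 0.15, limma adjusted p = 0.972) had a 95% interval of -0.25 to 0.38. About 5626 to 7271 fragments per library stood behind these values, a counting error of 1.17% to 1.33%. The exons of HNRNPUL1, on the opposite strand, overlap 6.64% of its exon bases, and without a stated strand setting those reads cannot be told apart.

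TGFB2, the ligand isoform that lacks the integrin-binding RGD motif in its propeptide (chromosome 1, 218346235 to 218444619, plus strand), had 16.47 and 17.01 FPKM with FABP4 and 22.07 and 25.40 FPKM with DMSO. The groups did not overlap, and the FABP4 mean of 16.7 ± 0.382 was 0.705 times the DMSO mean of 23.7 ± 2.36 (SD, n = 2). The log2 fold change was -0.48 (SE 0.12, 95% interval -0.73 to -0.23, limma adjusted p = 0.0868). In the authors' deposited table it was -0.48 with a q of 0.00246. The call depended on the settings: with FPKM rescaled to equal totals, with robust variance moderation and without DMSO replicate 1 the limma adjusted p was 0.0168, 0.0329 and 0.0370, in a range of 0.0168 to 0.581 over the 12 limma alternatives. GENCODE 29 places a noncoding transcript, TGFB2-OT1, over 26.6% of the gene's exon bases on the same strand, and the reads of the 2 cannot be told apart there.

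TGFB3, the isoform found with TGFB1 in developing cartilage and palate, had 5.43 and 6.33 FPKM with FABP4 and 5.85 and 5.54 FPKM with DMSO. The 2 DMSO values lay between the 2 FABP4 values. Its log2 fold change was 0.04 (95% interval -0.23 to 0.30, limma adjusted p = 0.983), and its sign was negative in 2 of the 12 limma alternatives and in the authors' deposited table.

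Set against each other within a library, the ligand genes differed in their shares. TGFB2 made up 7.03% and 7.49% of the summed FPKM of the 3 ligand genes in FABP4 replicates 1 and 2, and 8.57% and 12.5% in DMSO replicates 1 and 2. Both FABP4 libraries were below both DMSO libraries, with a difference of -3.26 percentage points. The exact two-sided permutation test gave p = 0.333, the smallest p that 2 against 2 libraries allow. Without DMSO replicate 2 the difference was -1.31 points and leaving out the other DMSO library gave -5.21 points. TGFB1 made up 90.7% and 89.7% with FABP4 and 89.2% and 84.8% with DMSO, which also kept the groups apart. The TGFB1 and TGFB2 shares depend on each other, and the FPKM of TGFB1 itself overlapped between groups. The summed ligand level was 231 ± 5.13 FPKM with FABP4 and 231 ± 37.9 FPKM with DMSO (SD, n = 2).

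**Figure D2:**
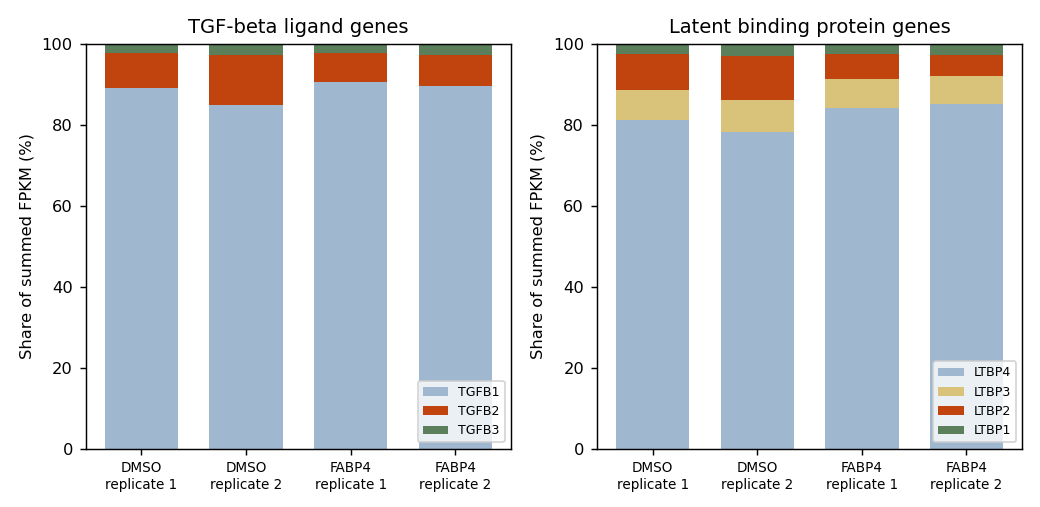
Stacked bars give the share (%) of each gene in the summed FPKM of the 3 ligand genes (left) and the 4 latent binding protein genes (right) in each library. The TGFB2 share is 7.03% to 7.49% with FABP4 and 8.57% to 12.5% with DMSO, and the LTBP2 share 5.04% to 6.11% and 9.05% to 10.8%.

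INHBA encodes the beta A subunit, whose homodimer is activin A, a ligand that shares SMAD2 and SMAD3 with TGF-beta. The gene lies on chromosome 7, 41667168 to 41705834, minus strand. It had 8.95 and 9.72 FPKM with FABP4 and 12.70 and 15.41 FPKM with DMSO. Both FABP4 libraries were lower, and the mean of 9.34 ± 0.545 was 0.664 times that of 14.1 ± 1.92 in DMSO (SD, n = 2). The log2 fold change was -0.54 (SE 0.12, 95% interval -0.80 to -0.27, limma adjusted p = 0.0630). The authors' deposited table gives -0.56 with a q of 0.00210. In limma INHBA passed in 4 of the 12 alternatives: 1 FPKM required in every library, equal totals, robust variance moderation and DMSO replicate 1 left out (adjusted p = 0.0393, 0.00981, 0.0202 and 0.0113, range 0.00981 to 0.591). Leaving out DMSO replicate 2 gave a log2 fold change of -0.41, and leaving out replicate 1 gave -0.67.

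Of the latent binding protein genes, LTBP2 (gene ID 4053, GRCh38 chromosome 14, 74498170 to 74612378, minus strand) was the one with a call. It had 2.25 and 2.29 FPKM with FABP4 and 4.02 and 3.94 FPKM with DMSO. The groups stood well apart, at 2.27 ± 0.0283 against 3.98 ± 0.0566 (SD, n = 2), and the estimated 215 to 228 fragments per FABP4 library compare with 424 to 427 per DMSO library. LTBP2 fell with a log2 fold change of -0.61 (SE 0.13, 95% interval -0.88 to -0.33, limma adjusted p = 0.0433). In the authors' deposited table it was -0.80 with a q of 7.92e-05. With any of the 4 libraries left out the log2 fold change stayed at -0.62 to -0.60, but each omission ended the call. The limma adjusted p was 0.0928 and 0.0952 on omitting FABP4 replicate 1 or 2, and 0.0663 and 0.0855 on omitting DMSO replicate 1 or 2. It was also above 0.05 with a pseudocount of 0.1 (0.0511), without the filter (0.525), with the replicate block (0.0790) and after quantile normalization (0.0800), in a range of 0.0112 to 0.525 over the 12 limma alternatives. An antisense noncoding gene overlaps 2.28% of its exon bases.

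LTBP1, which binds the latent forms of all 3 ligands, had 0.89 and 1.29 FPKM with FABP4 and 1.07 and 1.09 FPKM with DMSO. The DMSO libraries lay between the FABP4 libraries, and only about 66 to 88 fragments per library stood behind the values, a counting error of 10.6% to 12.3%. Its log2 fold change of 0.0003 had a 95% interval of -0.33 to 0.33 (limma adjusted p = 1.00), and its sign was negative in 6 of 11 limma alternatives. LTBP3, another carrier of latent TGF-beta, had 2.64 and 3.17 FPKM with FABP4 and 3.28 and 2.93 FPKM with DMSO. Its groups overlapped, with a log2 fold change of -0.07 (95% interval -0.36 to 0.21, limma adjusted p = 0.956) that was positive without FABP4 replicate 1.

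LTBP4, which favours TGFB1 and also takes part in elastic fibre assembly, was the most abundant of the latent binding protein genes. It had 31.02 and 38.68 FPKM with FABP4 and 36.04 and 28.64 FPKM with DMSO. The groups overlapped, and the libraries within each group differed by 1.25 and 1.26 times. Its log2 fold change was 0.11 (95% interval -0.19 to 0.40, limma adjusted p = 0.930), and was negative without FABP4 replicate 2 or DMSO replicate 2.

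LTBP4 made up 84.3% and 85.1% of the summed LTBP FPKM in FABP4 replicates 1 and 2, and 81.2% and 78.3% in DMSO replicates 1 and 2. LTBP2 made up 6.11% and 5.04% with FABP4 and 9.05% and 10.8% with DMSO. LTBP3 made up 7.17% and 6.98% against 7.39% and 8.01%. These 3 shares kept the groups apart, each with an exact two-sided permutation p of 0.333, the smallest possible here. Shares of the same sum depend on each other, and the FPKM of LTBP3 and LTBP4 themselves overlapped between groups. The summed level of the 4 genes overlapped between groups, at 41.1 ± 6.10 and 40.5 ± 5.52 FPKM (SD, n = 2).

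TGFBI encodes a secreted matrix protein with fasciclin domains that was named for its induction by TGF-beta and that binds collagens and integrins. The gene lies on chromosome 5, 136028895 to 136063818, plus strand. It had 22.23 and 21.81 FPKM with FABP4 and 29.71 and 28.17 FPKM with DMSO. The groups did not overlap, at 22.02 ± 0.297 against 28.9 ± 1.09 (SD, n = 2), a ratio of 0.761. The log2 fold change was -0.38 (SE 0.12, 95% interval -0.62 to -0.14, limma adjusted p = 0.182), and it passed in none of the 12 limma alternatives, with an unadjusted limma p of 0.00432. The authors' deposited table gives -0.37 with a q of 0.145.

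TGFBR2, the type II receptor that binds the ligand, had 8.44 and 10.01 FPKM with FABP4 and 7.71 and 10.63 FPKM with DMSO. The FABP4 libraries lay between the DMSO libraries, which differed by 1.38 times. The log2 fold change was 0.02 (95% interval -0.28 to 0.32, limma adjusted p = 0.992), and its sign was negative with equal totals, after quantile normalization, on omitting FABP4 replicate 2 or DMSO replicate 1, and in the authors' deposited table. For the 6 genes with overlapping groups, the intervals leave room for changes of up to 0.778 times or 1.32 times the control level on the FPKM + 1 scale.

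**Figure D3:**
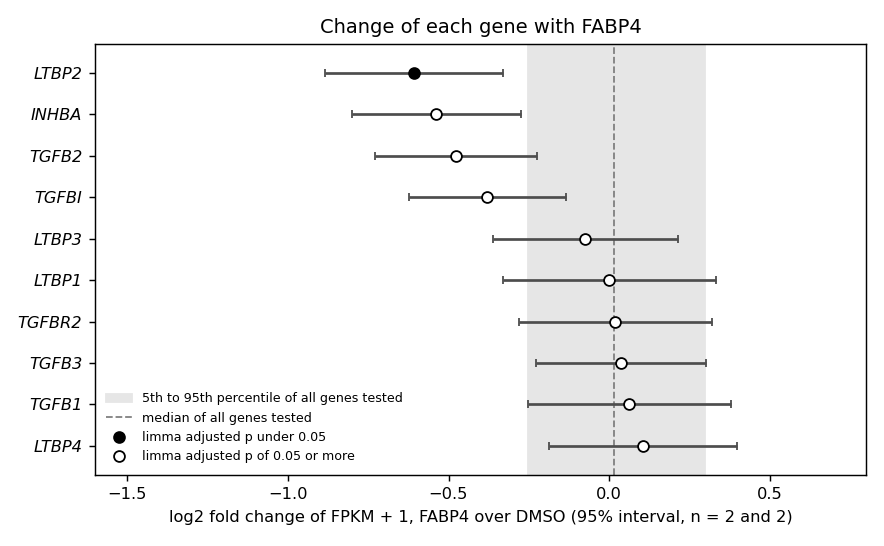
Points give the log2 fold change of FPKM + 1 for each gene (FABP4 over DMSO, 2 libraries each), bars the 95% limma interval; the grey band spans the 5th to 95th percentile of all 12490 genes (-0.25 to 0.30). LTBP2, INHBA, TGFB2 and TGFBI lie to the left of the band, the other 6 genes inside it.

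The upstream sequences of the 3 genes called lower by limma or by the authors are shown beside that of TGFB1, whose groups overlapped, to let their base composition and motifs be compared. Each is the 250 bases before the RefSeq start on GRCh38.p14, read 5′ to 3′ on the gene's strand. Capitals mark matches on either strand to TGANTCA (AP-1), TGACGTCA (CRE), CAGAC (the SMAD box), GGAATG (TEAD), TATAAA (bound by the TATA-binding protein) or GGGCGG (GC box). In the printed sequences no 2 different motifs overlap.
LTBP2, chr14:74612238-74612487, minus strand: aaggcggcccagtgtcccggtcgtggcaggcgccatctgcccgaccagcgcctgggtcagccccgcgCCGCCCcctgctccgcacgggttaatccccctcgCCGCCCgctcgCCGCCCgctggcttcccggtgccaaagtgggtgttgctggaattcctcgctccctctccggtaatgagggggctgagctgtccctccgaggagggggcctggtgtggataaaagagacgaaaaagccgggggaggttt
TGFB2, chr1:218345086-218345335, plus strand: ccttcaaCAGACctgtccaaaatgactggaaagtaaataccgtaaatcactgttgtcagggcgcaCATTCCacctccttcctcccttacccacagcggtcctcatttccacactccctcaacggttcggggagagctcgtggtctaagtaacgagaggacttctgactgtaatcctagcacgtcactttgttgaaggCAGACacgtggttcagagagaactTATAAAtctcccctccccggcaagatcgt
INHBA, chr7:41703091-41703340, minus strand: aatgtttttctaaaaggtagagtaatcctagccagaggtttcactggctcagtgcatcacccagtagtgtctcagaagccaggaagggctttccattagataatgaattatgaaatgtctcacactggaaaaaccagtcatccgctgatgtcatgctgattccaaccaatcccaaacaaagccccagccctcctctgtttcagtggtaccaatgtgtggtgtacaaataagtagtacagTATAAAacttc
TGFB1, chr19:41353923-41354172, minus strand: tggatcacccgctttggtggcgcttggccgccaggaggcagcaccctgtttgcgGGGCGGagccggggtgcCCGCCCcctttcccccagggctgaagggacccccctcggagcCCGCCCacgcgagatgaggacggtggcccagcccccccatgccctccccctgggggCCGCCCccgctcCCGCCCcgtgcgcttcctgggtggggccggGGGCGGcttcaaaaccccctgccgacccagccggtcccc

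The 4 upstream sequences differed in composition, with 42.8% G and C in INHBA, 50.4% in TGFB2, 68.8% in LTBP2 and 76.8% in TGFB1, beside a median of 58.0% over 35116 RefSeq windows. TGFB2 and INHBA hold TATAAA, from base -29 and base -11 before the start, as do 10.7% of all windows. TGFB2 also holds 2 copies of CAGAC, found in 38.0% of windows, and 1 of GGAATG, found in 11.9%. LTBP2 and TGFB1 hold 3 and 6 copies of GGGCGG, found in 42.6% of windows. Genes with overlapping groups hold these motifs too: TATAAA in TGFB3, CAGAC in TGFB3, LTBP1 and LTBP4, and GGAATG in LTBP4. GGGCGG also occurs in LTBP3, LTBP4, TGFBR2 and TGFBI. No window of any of the 10 genes holds TGANTCA, found in 6.57% of all windows. TGACGTCA, found in 1.65%, occurs among them only in LTBP1. A match describes letters in this window only, and which start these cells use was not measured. The RefSeq start of each of these 4 genes differs from its gene start in GENCODE 29. The INHBA window lies wholly inside its GENCODE 29 gene and the LTBP2 window partly, while those of TGFB1 and TGFB2 lie outside.

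Beyond the 10 genes, 77 genes of the same pathway were sorted by role into 5 lists, of which 61 could be tested. The lists too were chosen with earlier results of these data known. In limma 2 of the 61 fell and none rose, with 21 at an unadjusted p under 0.05 (17 lower, 4 higher). Over all tested genes the shares were 0.296% lower and 0.296% higher in limma, and 4.0% lower and 5.68% higher at an unadjusted p under 0.05. The authors' deposited table calls 8 of the 77 lower and none higher. Of its 18019 genes with a q-value, 88 (0.488%) are called lower and 30 higher.

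The receptor and coreceptor genes gave no call. Of 11, 9 were tested, and ACVR1C and ACVRL1 stayed under 1 FPKM in every library. None of the 9 passed in limma, at the adjusted or the unadjusted threshold, and none of the 11 in the authors' deposited table. Their median log2 fold change was -0.026. ENG, the coreceptor endoglin, had the smallest p, with 139.16 and 156.70 FPKM in FABP4 and 174.46 and 165.30 FPKM in DMSO (log2 fold change -0.20, limma adjusted p = 0.727). ACVR2A, a type II activin receptor, had 1.76 and 1.45 against 1.18 and 1.30 FPKM, and BAMBI, a decoy receptor, 36.48 and 34.13 against 31.94 and 32.73 FPKM (limma adjusted p = 0.750 and 0.865).

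Activin and related ligand genes with their binders lay mostly lower, without a call in limma. Of 13 genes, 6 were tested; INHBC, MSTN, NODAL, TDGF1, LEFTY1 and LEFTY2 stayed under 1 FPKM and INHBE reached it in 1 DMSO library. No gene reached the adjusted threshold in limma or in the authors' deposited table, and 4 lower and 1 higher had an unadjusted limma p under 0.05. The median log2 fold change of the 6 was -0.40. FST, the gene of follistatin, which binds and neutralises activin, had 34.39 and 33.24 FPKM with FABP4 and 46.89 and 48.75 FPKM with DMSO. The FABP4 libraries were both lower (log2 fold change -0.49, SE 0.12), with an adjusted p of 0.0680 in limma that ranged from 0.00592 to 0.482 over the alternatives. Its q was 0.0746 in the authors' deposited table. GDF15, a stress-induced member of the TGF-beta superfamily, had 3.53 and 2.97 against 5.43 and 5.14 FPKM (log2 fold change -0.57, limma adjusted p = 0.0605). INHBB, another activin beta subunit gene, had 1.56 and 2.05 against 2.72 and 3.02 FPKM, with a log2 fold change of -0.47 (limma adjusted p = 0.191). The ratio of INHBA to FST, chosen after the values were seen, was 0.260 and 0.292 with FABP4 and 0.271 and 0.316 with DMSO, so the groups overlapped.

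Anchors and activators of the latent complex held 19 genes, 14 of them tested. FBN2, MFAP2, ITGB6 and NRROS stayed under 1 FPKM and TGM2 reached it in 1 FABP4 library. None of the 14 reached the adjusted threshold in limma, 2 had an unadjusted limma p under 0.05, both lower, and their median log2 fold change was -0.042. THBS1, the gene of thrombospondin-1, which can free TGF-beta from its propeptide, had 85.38 and 99.63 FPKM with FABP4 and 122.12 and 125.14 FPKM with DMSO. Both FABP4 libraries were lower, with a log2 difference of -0.42 and an SE of 0.13 (limma adjusted p = 0.193), and THBS1 was the gene of this list that the authors' deposited table calls, with a q of 5.79e-04. MFAP5, a microfibril protein gene, had 15.88 and 17.00 against 19.95 and 21.24 FPKM, and ITGB8, a subunit of an activating integrin, 1.42 and 1.59 against 1.06 and 1.33 FPKM (limma adjusted p = 0.325 and 0.806).

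SMAD transducers and their regulators were all tested, 13 of 13. No gene reached the adjusted threshold in limma or in the authors' deposited table, 2 lower and 1 higher had an unadjusted limma p under 0.05, with a median log2 fold change of -0.011. The ubiquitin ligase genes NEDD4L and SMURF2, whose products limit SMAD signalling, had 11.72 and 12.35 against 15.14 and 16.86 FPKM, and 7.15 and 6.66 against 8.59 and 9.53 FPKM (limma adjusted p = 0.194 and 0.271). TGIF1, a SMAD corepressor gene, had 27.12 and 28.63 against 23.17 and 23.60 FPKM (limma adjusted p = 0.516).

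Among 21 TGF-beta response genes, 19 were tested and 2 fell, CCN2 and ACTA2; POSTN and PTHLH stayed under 1 FPKM. At an unadjusted limma p under 0.05 there were 9 lower and 2 higher, where all tested genes had 4.0% lower and 5.68% higher, and the median log2 fold change of the 19 was -0.20. CCN2 encodes connective tissue growth factor, a matricellular protein, and had 25.35 and 26.02 FPKM with FABP4 and 40.12 and 47.70 FPKM with DMSO, with a log2 fold change of -0.75 (SE 0.12) and a limma adjusted p = 0.00949. ACTA2, the smooth muscle actin gene, had 42.20 and 37.67 against 60.84 and 60.76 FPKM, with a log2 fold change of -0.60 (limma adjusted p = 0.0296). Both calls were lost without the filter on low values and after quantile normalization. The CCN2 call was also lost without DMSO replicate 2 (limma adjusted p = 0.0583, range 1.27e-06 to 0.482). The ACTA2 call was also lost with the replicate block (limma adjusted p = 0.109) and on omitting FABP4 replicate 2 or either DMSO library (limma adjusted p = 0.106, 0.0599 and 0.0946, range 1.81e-04 to 0.482).

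Some other response genes lay lower without passing in limma. Of the 19 tested, 12 had a log2 fold change below 0 and 7 above, beside 5748 and 6742 of all 12490 tested genes. Every tested response gene named here is from those below 0. LOX, which cross-links collagen, had 27.70 and 29.82 against 37.34 and 42.15 FPKM, and TAGLN, an actin-binding protein gene, 58.72 and 55.63 against 77.21 and 77.38 FPKM (limma adjusted p = 0.115 and 0.134). The authors' deposited table calls 7 of the 21 lower, where 0.488% of its 18019 genes with a q-value are called lower. Among the 7 are CCN2, ACTA2, LOX, COL4A1, TNC and HMGA2, whose q-values ran from 2.94e-05 to 0.0291. COL4A1, TNC and HMGA2 were named after their values were seen.

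**Figure D4:**
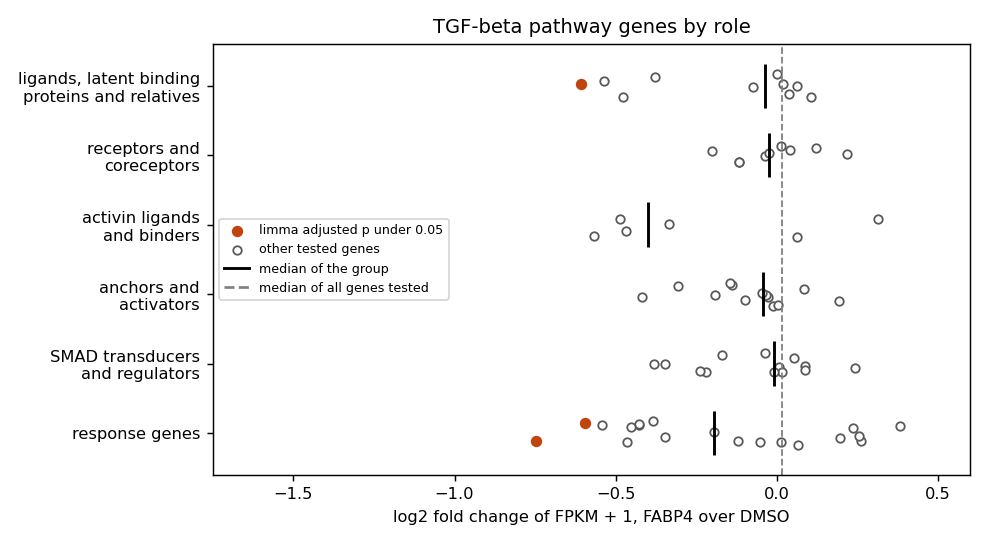
Each point is the log2 fold change of FPKM + 1 of one tested gene (FABP4 over DMSO, 2 libraries each), by role; black bars are group medians, the dashed line the median of all tested genes (0.014), and filled points pass in limma. LTBP2, CCN2 and ACTA2 are filled, and the activin and response groups have the lowest medians (-0.40 and -0.20).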

How the data were processed

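Total RNA of C28/I2 cells was sequenced in 2 libraries per group, and groups come from the treatment label. Per the file headers, the deposited table gives one FPKM column a library. Beside them stand the p-value, the q-value and the log2 fold change of the authors, which the file headers credit to DESeq2, with no q-value for 1196 genes. Compared with the FPKM, a positive deposited log2 fold change is a higher level with FABP4. Bowtie2 2.2.5, RSEM 1.2.12, DESeq2 1.4.5 and GRCh38.p13 are named without roles, per the submitters' processing notes; for the annotation, the filters and the strand setting, the answer is not given in the sources used here.

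Values were taken as log2(FPKM + 1), which understates the change of low genes. A gene entered the test if 2 or more libraries reached 1 FPKM. The fit, on the condition alone, used limma 3.58.1 (R 4.3.3) with a mean-variance trend. Each gene's variance was moderated toward that trend, so limma SEs, intervals and p-values also draw on the other genes tested. The p-values are two-sided and were adjusted by Benjamini-Hochberg over all genes tested, with 0.05 as the threshold. This was tested on simulated data. Shares were compared by exact permutation over libraries.

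Depth was estimated as the number of fragments that best turns low FPKM of single-exon genes of 500 to 4000 bases into whole fragments, with a fitted fragment length of 280 bases. Of 137 to 184 such genes per library, 58.7% to 62.6% came within 0.15 of a whole number, so the depths are approximate. Fragments per gene use the longest GENCODE 29 transcript and cover counting error only. Promoter windows are RefSeq's on GRCh38.p14 and gene coordinates those of GENCODE 29 on GRCh38.

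The 10 genes, the lists and the alternatives were chosen with earlier results of these data known. Named besides the 10 genes are, of each list, the called genes, the 3 others with the smallest limma p and those under the filter; 1 gene that this rule names is not reported here. FABP4's own transcript had 1.03 and 0.56 FPKM with FABP4 and 2.10 and 1.93 FPKM with DMSO. Alternatives were a pseudocount of 0.1, 2 other filters, the replicate block, 3 other scalings, robust variance moderation, each library left out and the authors' DESeq2 calls.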

Additional observations from a re-analysis of the deposited data

How the results depend on the processing

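Which genes passed depended on the settings. LTBP2, TGFB2, INHBA and TGFBI stayed below 0 in all 12 limma alternatives and in the authors' deposited table. Their limma log2 fold changes were -0.78 to -0.60, -0.57 to -0.38, -0.67 to -0.41 and -0.42 to -0.34. The 2 other filters, the replicate block and robust variance moderation cannot alter a log2 fold change. With the groups apart, neither the pseudocount nor the omission of a library could turn its sign. Only the 3 other scalings and the authors' deposited table could have done so. Of the 10 genes, 1 passed in the limma fit reported and with median-of-ratios scaling, 0 with a pseudocount of 0.1, without the filter, with the replicate block or after quantile normalization (4 at an unadjusted p under 0.05 in each), 2 with 1 FPKM required in every library, 3 with equal totals, 3 with robust variance moderation, 3 in the authors' deposited table, and 0 to 2 with a library left out. Of the pathway lists 2 genes passed, against 0 without the filter, 4 with 1 FPKM in every library, 1 with the replicate block, 11 with equal totals, 0 after quantile normalization, 5 with robust variance moderation, 8 in the authors' deposited table and 0 to 4 with a library left out. Over all genes 74 passed, against 0 without the filter (1362 at an unadjusted p under 0.05), 116 with 1 FPKM in every library, 47 with the replicate block, 178 with equal totals (63 higher, 115 lower), 10 after quantile normalization, 164 with robust variance moderation, 118 in the authors' deposited table (30 higher, 88 lower), and 59 without DMSO replicate 2 to 153 without FABP4 replicate 1. The causes were not tested.

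The labels number the replicates but do not say whether same-numbered libraries were handled together. Across genes, same-numbered libraries deviated from their group means with a correlation of -0.119, a single value that cannot decide it. A block with crossed numbers, added after seeing the data, gave 418 calls over all genes, 4 of the 10 genes and 13 of the pathway lists. Within replicate pairing the difference in the TGFB2 share was -3.26 points, which equals the unpaired difference by arithmetic. The exact permutation p = 0.500 is the smallest that sign changes of 2 pairs allow, so it cannot decide.

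Signs near 0 changed. In log2 fold change TGFB1 (0.06) was -0.0027, TGFB3 (0.04) -0.029 and TGFBR2 (0.02) -0.060 in the authors' deposited table. With equal totals TGFB3 was -0.0023, LTBP1 -0.021 and TGFBR2 -0.023. After quantile normalization LTBP1 was -0.047 and TGFBR2 -0.0018. LTBP1 was -0.0084 with a pseudocount of 0.1 and -0.0089 with median-of-ratios scaling. With a library left out TGFB1 ranged from -0.14 to 0.27, TGFB3 from -0.058 to 0.13, LTBP1 from -0.14 to 0.14, LTBP3 from -0.17 to 0.024, LTBP4 from -0.055 to 0.27 and TGFBR2 from -0.19 to 0.23. With 1 library left in a group, that library is assumed to vary like the other group. LTBP1 has no value with 1 FPKM required in every library. Estimated fragments per library ran from 66 to 88 for LTBP1 to 5626 to 7271 for TGFB1, a counting error of 10.6% to 12.3% and of 1.17% to 1.33%, while the DMSO libraries of TGFB1 differed by 1.33 times.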
